A study of Mus musculus with 16 samples.

Results

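Matrix metalloproteinases (MMPs), ADAMTS proteases and tissue inhibitors of metalloproteinases (TIMPs) were followed in cultured primary mouse lung fibroblasts. The genes were chosen by name, as every gene of the deposited table whose mouse symbol is Mmp, Adamts or Timp followed by its number. This gave 46 of 54331 genes, made up of 23 MMP, 19 ADAMTS and 4 TIMP genes. Of the 46, 32 had a mean of at least 10 normalized counts over the 8 libraries, and their levels and tests are given here. The cells came from C57BL/6 mice labelled ST2 KO or WT, and RNA was sequenced 72 h after infection with an adenovirus. The virus was AdV-MIL33 (mature IL-33, M), AdV-FLIL33 (full-length IL-33, FL) or the non-coding control AdV-NULL. Each genotype had 1 M, 1 FL and 2 NULL libraries, so every library carries a viral infection, and no uninfected cells are among them. KO and WT stand below for libraries with those labels. The labels do not say whether the 2 NULL libraries of a genotype came from separate animals or cultures, and a p-value here can speak only to how much these particular libraries vary, possibly for technical reasons.

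MMPs and ADAMTS proteases are zinc enzymes that cut proteins of the extracellular matrix. The collagenases open fibrillar collagen, the gelatinases degrade unwound collagen, and the stromelysins cut proteoglycans and glycoproteins and activate other MMPs. Many ADAMTS proteases cut proteoglycans such as versican and aggrecan, and others trim the ends of procollagen. TIMPs bind the active site and hold this activity in check. Lung fibroblasts are known to make members of all 3 families. IL-33 is a cytokine of the interleukin-1 family, and ST2, encoded by Il1rl1, is its receptor.

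Normalized totals ran from 2.39e+07 in WT M to 2.92e+07 in KO FL, and the 46 genes made up 0.586% (WT M) to 0.749% (WT NULL 2) of them. The vector transcript Il33 was at 81109.9 normalized counts in KO M, 1080220 in KO FL, 248956 in WT M and 593840 in WT FL, against 193 to 216 in the NULL libraries, so its level was not matched between viruses or genotypes. Il1rl1 was at 69.2 to 85.2 in the KO libraries and 18.3 to 106 in the WT libraries, so its summed level does not separate the genotypes. The labels do not give the allele, and the level of an altered transcript says nothing of the receptor. Fibroblast markers were high in every library (10 genes, summed level 469285 to 907640, Col1a1 217130 to 381061). Macrophage and monocyte markers were present throughout (13 genes, summed level 20340.5 to 47714), with Lyz2 at 14733 to 35415 and Marco at or near 0. The neutrophil genes Ly6g and Retnlg were at 0 in all 8 libraries. Both deposited tables list identical numbers in all but 2 of 434648 cells. The cells are called fibroblasts because of the column titles, and the unseparated lung cells of the study were not analysed here. In such bulk libraries, fewer cells of a type and less RNA per cell cannot be told apart.

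Of the 23 MMP genes, 10 lie next to each other on chromosome 9, at chr9:7272514-7699585 (GRCm38), a stretch of 427 kb. In order they are Mmp13, Mmp12, Mmp1b, Mmp3, Mmp1a, Mmp10, Mmp8, Mmp27, Mmp20 and Mmp7, and 6 of them had a mean of at least 10. The 4 with the highest means in this stretch (Mmp12, Mmp3, Mmp13 and Mmp10) are shown by the 250 bases before their starts, since their levels carry the differences described below. The sequences are from RefSeq (GRCm38.p6), all on the plus strand, at chr9:7272264-7272513 for Mmp13, chr9:7344147-7344396 and chr9:7347124-7347373 for the 2 starts of Mmp12, chr9:7445572-7445821 for Mmp3 and chr9:7502092-7502341 for Mmp10. Capitals mark TGANTCA, where N is any base. This is a loose form of the letters bound by AP-1, a factor made of Fos and Jun proteins.
Mmp13: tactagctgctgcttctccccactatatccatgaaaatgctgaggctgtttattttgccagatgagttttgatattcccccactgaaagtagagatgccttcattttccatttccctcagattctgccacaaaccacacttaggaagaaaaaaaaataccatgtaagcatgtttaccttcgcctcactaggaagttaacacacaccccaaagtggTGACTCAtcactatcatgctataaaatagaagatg
Mmp12, first start: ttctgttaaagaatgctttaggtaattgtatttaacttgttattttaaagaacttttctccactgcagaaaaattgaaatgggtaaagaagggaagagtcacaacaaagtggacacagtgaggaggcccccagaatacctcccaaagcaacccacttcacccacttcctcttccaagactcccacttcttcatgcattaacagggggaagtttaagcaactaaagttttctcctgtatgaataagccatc
Mmp12, second start: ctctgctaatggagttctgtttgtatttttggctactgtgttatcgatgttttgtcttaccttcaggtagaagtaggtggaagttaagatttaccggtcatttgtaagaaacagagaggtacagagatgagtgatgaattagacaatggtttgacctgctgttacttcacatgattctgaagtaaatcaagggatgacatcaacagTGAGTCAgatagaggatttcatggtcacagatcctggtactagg
Mmp3: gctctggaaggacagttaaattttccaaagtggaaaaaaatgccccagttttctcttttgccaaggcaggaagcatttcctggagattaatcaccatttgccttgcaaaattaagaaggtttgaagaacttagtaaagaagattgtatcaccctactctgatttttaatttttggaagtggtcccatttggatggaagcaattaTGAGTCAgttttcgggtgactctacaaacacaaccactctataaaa
Mmp10: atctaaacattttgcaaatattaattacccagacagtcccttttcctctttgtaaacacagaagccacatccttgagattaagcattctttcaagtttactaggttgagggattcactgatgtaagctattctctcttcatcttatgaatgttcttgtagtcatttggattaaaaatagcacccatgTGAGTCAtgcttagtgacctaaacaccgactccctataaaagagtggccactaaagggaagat

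The AP-1 letters, which read alike on both strands, stood at bases -35 to -29 before the start of Mmp13, -44 to -38 before the second start of Mmp12, -46 to -40 before Mmp3 and -63 to -57 before Mmp10. The promoter table had an entry for 32 of the 46 genes, 20 of them among those tested. The letters were found in 8 of the 10 genes of the chromosome 9 group and in 0 of the 22 other members with an entry. In the whole table they were found in 2217 of 32851 promoters (6.75%). A gene counts here if any of its starts has the letters, whereas the share of the table is per promoter. They were absent before Mmp8 and Mmp27, and they were present before Mmp7 and Mmp20, which were listed at 0 in all 8 libraries. An NF-kB motif was found on neither strand before any of the 20 tested genes (0.356% of all promoters hold it). An interferon response core, searched on both strands, was found before 1 of the 20, Mmp13 (2.98% of all promoters). A match describes the letters and is no evidence of binding.

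The map of levels by library shows 2 groups of genes with opposite extremes, which together hold 15 of the 32. Mmp3, Mmp8, Mmp9, Mmp10, Mmp12, Mmp13 and Timp1 were lowest in the WT NULL pair, and all of them but Timp1, which was highest in KO FL, were highest in WT M. Adamts10, Adamts12, Mmp11, Mmp14, Mmp17, Mmp23, Mmp28 and Timp2 were highest in a WT NULL library and lowest in WT M. The others had their extremes elsewhere: Adamts2 and Adamts5, for example, were highest in WT FL and lowest in WT M, and Mmp2 was highest in WT M and lowest in KO M. The 4 KO libraries lay close to each other whichever virus they carried: for 29 of the 32 genes the highest KO library was under 1.5-fold above the lowest (median 1.23-fold), and the largest ratio was 3.70-fold, for the low Adamts3. WT M was above the 7 other libraries in 12 of the 32 genes (27.3% of all 15527 tested genes) and below them in 16 (30.3% of all tested genes).

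**Figure D1:**
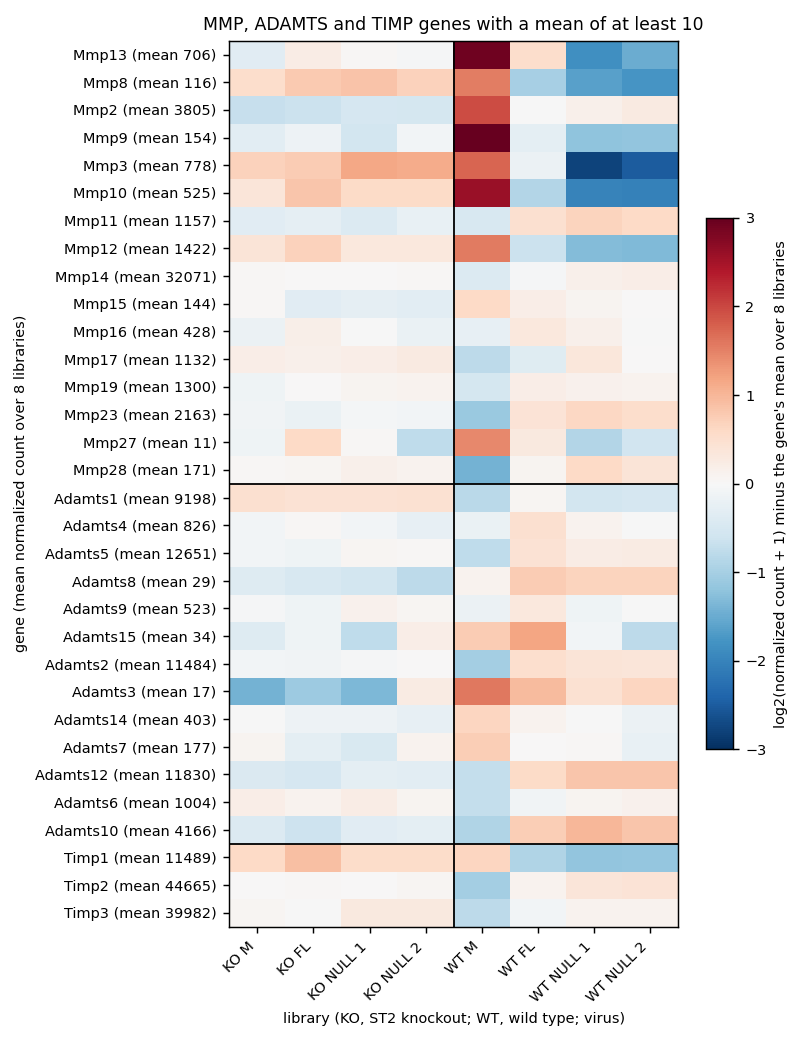
Level of each of the 32 genes in each of the 8 libraries, as log2(normalized count + 1) minus the gene's mean, with libraries on the x axis, genes on the y axis and the colour running from -3 (blue) to 3 (red). WT M differs from the other WT libraries in most rows, and the 4 KO columns look alike.

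The main test of genotype was limma on log2(normalized count + 1) with 4 group means, in which M and FL are the 2 samples of IL-33. With the NULL virus, 1 of the 32 genes passed at an adjusted p below 0.05, Mmp3, which was higher in KO (4.28% of all tested genes passed, 2.58% higher and 1.7% lower), and 11 had an unadjusted p below 0.05. Averaged over NULL and IL-33, 5 of 32 passed (11.9% of all tested genes, 6.86% higher and 5.08% lower): Adamts1, Mmp3 and Timp1 were higher in KO, and Adamts8 and Adamts3 were lower. The spread in this fit holds the difference between WT M and WT FL, which is wide for these genes. With 6 group means, where the spread comes from the 2 NULL pairs alone, 19 of 32 passed with the NULL virus, 9 higher and 10 lower in KO (32.8% of all tested genes, 16.2% higher and 16.6% lower), and 23 averaged, 10 higher and 13 lower (40.8% of all tested genes, 21.4% higher and 19.4% lower). Without WT M, the 4 group means gave 19 of 31 with the NULL virus (32.5% of all tested genes) and 20 of 31 averaged (40% of all tested genes), and Mmp27 no longer reached a mean of 10. Without WT FL they gave 19 with the NULL virus (32.3% of all tested genes) and 25 averaged (38.3%). Without any 1 of the other 6 libraries they gave 0 with the NULL virus and 0 or 1 averaged. The KO and WT libraries did not overlap in 4 of 32 genes (20.5% of all tested genes, 11.5% higher and 9% lower), with Adamts1 higher in KO and Adamts3, Adamts8 and Mmp2 lower. Leaving out WT M, 16 of 32 did not overlap (41.2% of all tested genes, 20.6% in each direction), 6 higher and 10 lower in KO.

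**Figure D2:**
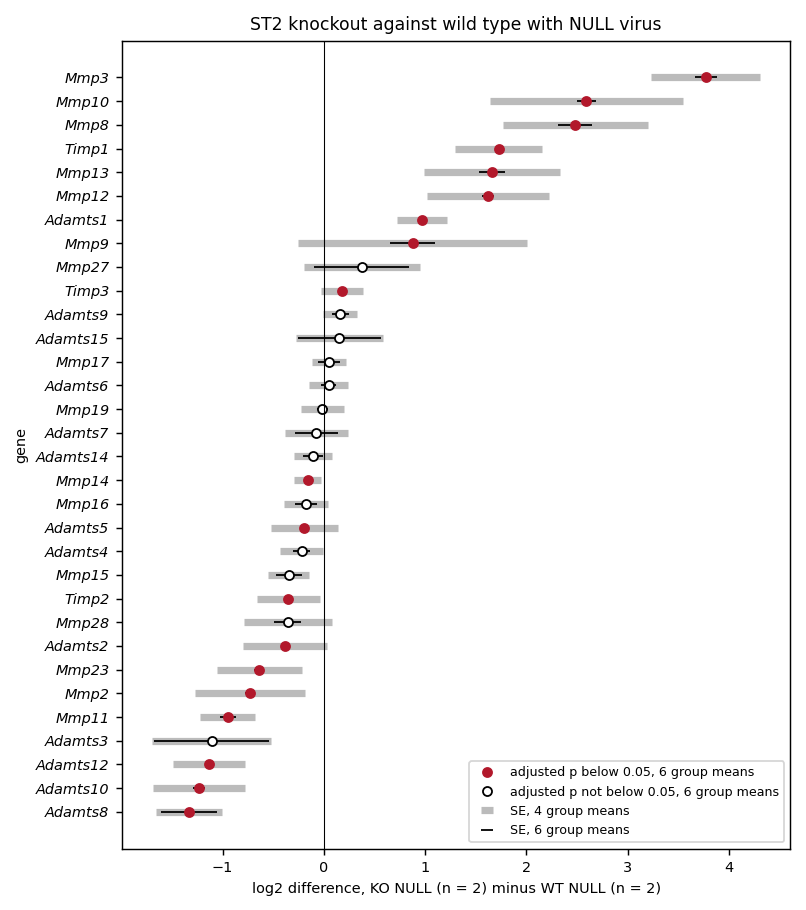
Difference between KO NULL and WT NULL (n = 2 each) for the 32 genes, as log2 difference on the x axis with 1 gene per row, sorted. Grey bars are the SE with 4 group means, thin black lines the SE with 6, and red points passed with 6, with Mmp3 at 3.77 and Adamts8 at -1.33 at the ends.

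For IL-33 as a whole against NULL, 0 of 32 genes passed in KO with the 4 group means (0.0193% of all tested genes; 0 of 32 at an unadjusted p below 0.05) and 0 of 32 in WT (0.264% of all tested genes; 17 at an unadjusted p below 0.05). The difference of the 2 effects passed in 0 of 32 (0.129% of all tested genes; 3 at an unadjusted p below 0.05). With 6 group means these counts were 1 of 32 in KO (Timp3; 0.174% of all tested genes), 25 in WT (37.4%) and 20 for the difference (20.5%). With 4 group means and without WT M they were 0 in KO (0.039% of all tested genes), 12 in WT (7.31%) and 5 for the difference (3.19%), and without WT FL 0 in KO (0.0515%), 26 in WT (48.3%) and 24 for the difference (36.2%). Each IL-33 library was therefore also set against the NULL pair of its genotype with 6 group means, so that the spread of the NULL pairs had to stand in for that of a single library. KO M against KO NULL gave 0 of 32 (0.0322% of all tested genes; 6 at an unadjusted p below 0.05). KO FL against KO NULL gave 2 of 32, Timp1 higher and Timp3 lower (0.238% of all tested genes, 0.0708% higher and 0.167% lower), and 0 without either KO NULL library or 1 without WT M. WT M against WT NULL gave 26 of 32, 12 higher and 14 lower (49.3% of all tested genes, 22.5% higher and 26.8% lower), 16 of them by at least 2-fold. WT FL against WT NULL gave 11 of 32, 7 higher and 4 lower (7.39% of all tested genes, 3.5% higher and 3.9% lower), and 5 without either KO NULL library, where the calls of Adamts5, Adamts12, Mmp14, Timp1, Timp2 and Timp3 were lost at the same differences. WT M against WT FL gave 25 of 32, 9 higher and 16 lower (36% of all tested genes, 15.9% higher and 20.1% lower). The WT M and WT FL comparisons share the WT NULL pair, and the other 2 share the KO NULL pair.

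**Figure D3:**
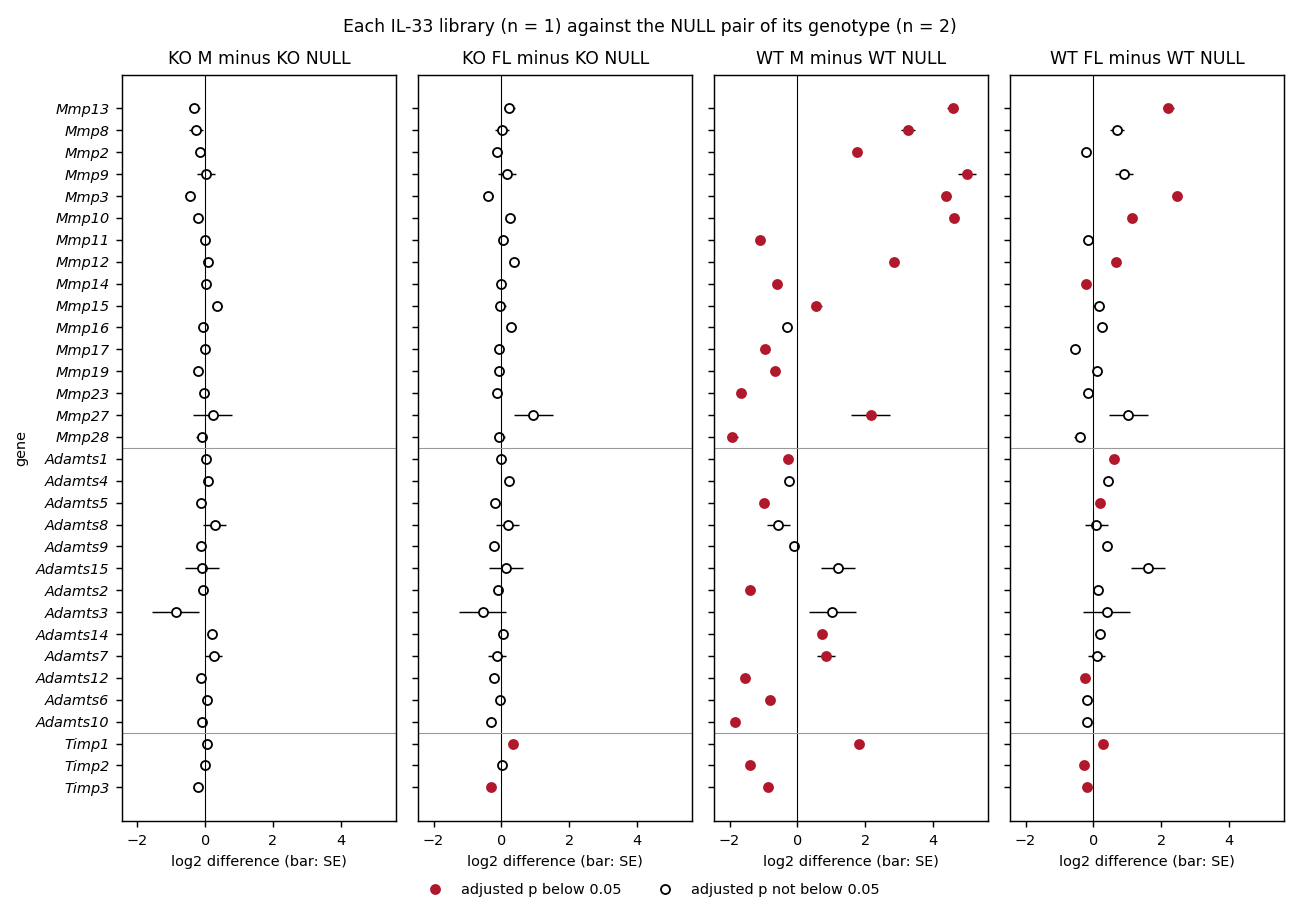
Each IL-33 library (n = 1) against the NULL pair of its genotype (n = 2), as log2 difference with its SE on the x axis and 1 gene per row. The 26 red points of WT M, those with an adjusted p below 0.05, spread from -1.92 to 4.99, and the 2 red points of KO FL lie at -0.30 and 0.35.

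The stromelysins Mmp3 and Mmp10 were higher in every KO library than in WT FL and WT NULL. Mmp3 (ENSMUSG00000043613.8), which cuts proteoglycans, laminin and fibronectin and activates pro-MMPs, was at 820.3 normalized counts in KO M, 855 in KO FL and 1136 and 1094 in KO NULL, against 1709 in WT M, 446 in WT FL and 73.1 and 89.4 in WT NULL. The lowest KO library was thus above all WT libraries except WT M. KO NULL was 13.6-fold above WT NULL (log2 3.77 ± 0.54 SE, n = 2 each, limma adjusted p = 0.0142 with 4 group means; SE 0.11 with 6). Within WT, Mmp3 rose 20.9-fold with M (adjusted p = 1.29e-06) and 5.46-fold with FL (adjusted p = 0.000441) over NULL. The call against WT NULL with 4 group means was lost without any 1 library other than WT M or WT FL, with log2 differences between 3.63 and 3.91. Averaged over inserts, KO was 3.62-fold above WT (log2 1.85 ± 0.38 SE, adjusted p = 0.0259), a call lost without the same 6 libraries, with log2 differences of 1.78 to 1.93.

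Mmp10 (ENSMUSG00000047562.3), a stromelysin close to Mmp3 in sequence, was at 410.2 in KO M, 571 in KO FL and 474 and 479 in KO NULL, against 1938 in WT M, 173 in WT FL and 78.8 and 77.5 in WT NULL. It followed the same order of libraries as Mmp3 within WT, and the KO libraries stood between WT M and WT FL. KO NULL was 6.03-fold above WT NULL (log2 2.59 ± 0.96 SE, adjusted p = 0.192 with 4 group means, 6.09e-06 with 6), and within WT the gene rose 24.5-fold with M and 2.20-fold with FL over NULL. Salmon shares reads between similar transcripts, so the split between Mmp3 and Mmp10, and between Mmp1a and Mmp1b, is uncertain.

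Of the collagenases, Mmp13 and Mmp8 had a mean of at least 10. Mmp13 (ENSMUSG00000050578.10), the main interstitial collagenase of the mouse, was at 331 in KO M, 486 in KO FL and 423 and 403 in KO NULL, against 3136 in WT M, 604 in WT FL and 115 and 148 in WT NULL. WT M and WT FL were both above all 4 KO libraries, and WT NULL below them. Within WT it rose 23.9-fold with M (adjusted p = 2.18e-06) and 4.61-fold with FL (adjusted p = 0.000867) over NULL. KO NULL was 3.16-fold above WT NULL (adjusted p = 0.224 with 4 group means, 0.000166 with 6). Averaged over inserts, the log2 difference between KO and WT was -0.06 with all libraries and 0.53 without WT M, so its sign rests on that library.

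Mmp8 (ENSMUSG00000005800.3), known as the neutrophil collagenase, was at 125 in KO M, 151 in KO FL and 158 and 142 in KO NULL, against 256 in WT M, 42.8 in WT FL and 27.3 and 24.8 in WT NULL. Every KO library was above WT FL and WT NULL and below WT M. WT M was 9.50-fold above WT NULL (adjusted p = 3.11e-05), while WT FL had a log2 difference of 0.70 ± 0.21 SE from WT NULL and did not pass (adjusted p = 0.0969). KO NULL was 5.59-fold above WT NULL (adjusted p = 0.113 with 4 group means, 8.84e-05 with 6). The neutrophil markers beside it were low: of 5 listed genes, Ly6g and Retnlg were at 0 throughout, S100a8 was at most 6.1, and only Cxcr2 had a mean of at least 10 (96.7 in WT M against 27.3 and 42.0 in WT NULL, adjusted p = 0.0196). Their part in the Mmp8 level was not tested. Mmp1a and Mmp1b, the mouse relatives of human interstitial collagenase, stayed under a mean of 10, with Mmp1b just under it at 8.39 (31.2 in WT M) and Mmp27 just above it at 11.5.

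Mmp12 (ENSMUSG00000049723.14), macrophage elastase, had the highest mean of the chromosome 9 group. It was at 1530.3 in KO M, 1877 in KO FL and 1451 and 1438 in KO NULL, against 3399.7 in WT M, 744 in WT FL and 471 and 467 in WT NULL. WT M stood above all KO libraries, and WT FL and WT NULL below them. Mmp12 rose 7.23-fold with M (adjusted p = 6.13e-07) and 1.58-fold with FL (adjusted p = 0.00276) in WT, and KO NULL was 3.07-fold above WT NULL (adjusted p = 0.195 with 4 group means, 5.74e-06 with 6). Macrophage and monocyte markers moved with it in WT M: the 13 genes summed to 47714 in WT M, against 20340.5 and 21212 in WT NULL, and 12 of the 12 tested passed as higher. In that comparison 49.3% of all tested genes passed, 22.5% as higher. In WT FL, where Mmp12 was 1.58-fold above WT NULL, the marker sum was 20961.4, within the range of the WT NULL pair. In the KO libraries the sum was 21435 to 24188, most of it Lyz2. Between KO NULL and WT NULL, 0 of the 12 passed with 4 group means (4.28% of all tested genes), the fit in which Mmp12 did not pass either. With 6 group means, added for these markers after the data were seen, 7 of the 12 passed (32.8% of all tested genes, 16.2% higher and 16.6% lower). Ptprc, Cd68, Mrc1, Adgre1, Fcer1g and Itgam were higher in KO NULL and Csf1r was lower (median log2 of the list 0.24). C1qa, C1qb, C1qc, Lyz2 and Tyrobp did not pass. Ptprc was at 401 and 395 in KO NULL, against 245 and 253 in WT NULL. Cd68 was at 771 and 741 in KO NULL, against 517 and 474 in WT NULL. Csf1r went the other way, at 824 and 808 in KO NULL, against 1167 and 940 in WT NULL. C1qa was at 858 and 831 in KO NULL, against 895 and 864 in WT NULL. The part of these cells in the Mmp12 level was not tested. Summed per kb of exons, the 10 genes of the chromosome 9 group were at 1086 in KO M, 1318 in KO FL and 1342 and 1299 in KO NULL, against 3858 in WT M, 708 in WT FL and 209.5 and 232 in WT NULL.

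**Figure D4:**
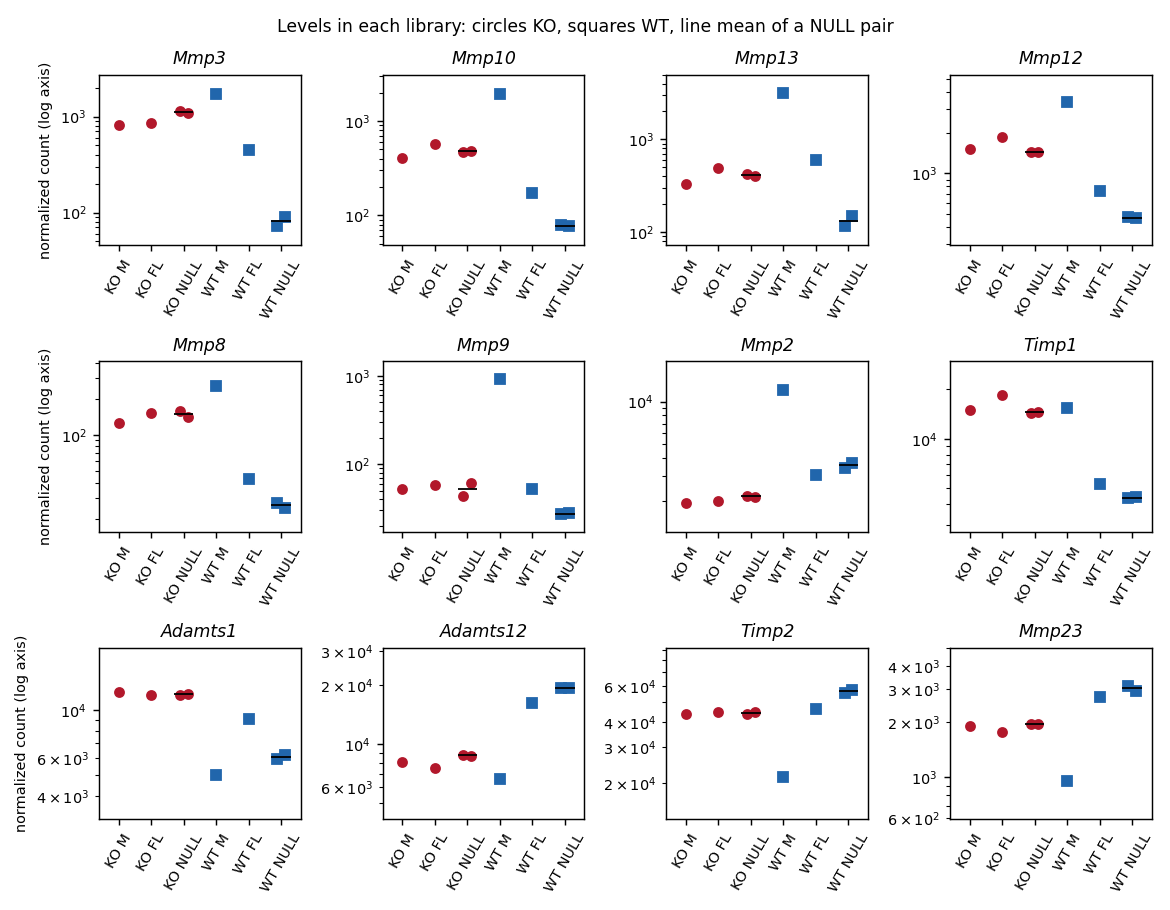
Normalized counts of 12 genes in each library on log axes, with KO as circles, WT as squares and a line at the mean of each NULL pair. Mmp3, Mmp10, Mmp12 and Mmp8 have all KO points between WT M and the other WT points, and Adamts12, Timp2 and Mmp23 have WT M as the lowest point.

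Of the gelatinases, Mmp2 was lower and Mmp9 higher in the KO NULL libraries than in the WT NULL libraries. Mmp2 (ENSMUSG00000031740.8), the gelatinase made constitutively by fibroblasts, was at 1928 in KO M, 1988 in KO FL and 2167 and 2143 in KO NULL, against 12016 in WT M, 3049 in WT FL and 3435 and 3712 in WT NULL. All 4 KO libraries were below all 4 WT libraries. Within WT, it was 3.36-fold higher in the M library than in NULL. The FL library had a log2 difference of -0.23 ± 0.06 SE from NULL, which did not pass. WT M and WT FL are 1 library each, and what sets them apart from NULL was not tested. KO NULL was 1.66-fold below WT NULL (adjusted p = 0.483 with 4 group means, 0.000112 with 6). Mmp9 (ENSMUSG00000017737.2), the gelatinase typical of leukocytes, was at 52.0 in KO M, 58.1 in KO FL and 43.7 and 60.8 in KO NULL, against 911 in WT M, 52.5 in WT FL and 27.3 and 28.0 in WT NULL. It had the largest rise of the 32 genes in WT M, 31.8-fold over NULL (log2 4.99 ± 0.27 SE, adjusted p = 1.54e-05), while WT FL lay within the range of the KO libraries. Averaged over inserts, Mmp9 had a log2 difference between KO and WT of -0.55, which passed with 6 group means (adjusted p = 0.0284), and of 0.47 without WT M (adjusted p = 0.092).

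Mmp11 (ENSMUSG00000000901.17), stromelysin-3, moved opposite to Mmp3 and Mmp10. It was at 867 in KO M, 910.3 in KO FL and 827 and 936 in KO NULL, against 789 in WT M, 1526 in WT FL and 1749 and 1652 in WT NULL. The KO libraries were all below WT FL and WT NULL and above WT M. KO NULL was 1.93-fold below WT NULL (adjusted p = 0.113 with 4 group means, 0.000217 with 6), and in WT the gene fell 2.15-fold with M. Its exons overlap Chchd10 on the opposite strand over 5.58% of their length, and strandedness of the counts is not stated.

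Among the membrane-bound MMPs, Mmp14 (ENSMUSG00000000957.11), which activates pro-MMP2 at the cell surface, had by far the highest level per kb of exons of all MMPs (mean 5381, the next being Mmp2 at 1129). Its normalized counts were 32636 in KO M, 32064 in KO FL and 32008 and 32618 in KO NULL, against 23884 in WT M, 31187 in WT FL and 35412 and 36758 in WT NULL. The spread was narrow: it fell 1.51-fold with M and 1.16-fold with FL in WT, and KO NULL was 1.12-fold below WT NULL (adjusted p = 0.534 with 4 group means, 0.0101 with 6). Mmp17, a membrane protease held by a lipid anchor, was at 1268 in KO M, 1218 in KO FL and 1258 and 1318 in KO NULL, against 633 in WT M, 858 in WT FL and 1398 and 1102 in WT NULL, and fell 1.96-fold with M in WT. Mmp15 (111.6 to 213.5 over the 8 libraries) was 1.47-fold higher in WT M than in WT NULL (adjusted p = 0.0256). That call was lost without either WT NULL library. Mmp16 (359.7 to 529.9) passed between WT M and WT FL, where it was 1.47-fold lower in WT M (adjusted p = 0.0286). Mmp24 and Mmp25 stayed under a mean of 10, with Mmp24 at 10.1 in WT M and at most 0.675 elsewhere.

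The other MMPs were mostly lower in WT M. Mmp23 (ENSMUSG00000029061.2), a protease of unusual domain structure, was at 1894 in KO M, 1765 in KO FL and 1951 and 1941 in KO NULL, against 949.8 in WT M, 2732 in WT FL and 3131 and 2936 in WT NULL. The KO libraries lay below WT FL and WT NULL and above WT M, and in WT the gene fell 3.19-fold with M (adjusted p = 3.58e-06). Mmp28, known as epilysin, was at 163 in KO M, 168 in KO FL and 179 and 173 in KO NULL, against 59.0 in WT M, 169.8 in WT FL and 244 and 209 in WT NULL. WT M stood apart as the lowest library, 3.79-fold below WT NULL (log2 -1.92 ± 0.17 SE, adjusted p = 0.000134). Mmp19, a widely expressed matrix protease, was at 1182 in KO M, 1307 in KO FL and 1367 and 1389.6 in KO NULL, against 887 in WT M, 1483 in WT FL and 1409 and 1374 in WT NULL, and fell 1.57-fold with M in WT. Mmp27 (4.91 to 28.4) was 4.48-fold higher in WT M than in WT NULL, at levels of few reads. It reached a mean of 10 only through WT M, and without that library it was not tested. Its place among the genes counted as higher in WT M is therefore no support for a rise. Opposite-strand exons overlap 22.3% of Mmp19 (Tmem198b) and 12.03% of Mmp28 (1700020L24Rik). Of the remaining MMPs, Mmp7, Mmp20 and Mmp21 were at 0 or at most 1.29 in every library.

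The ADAMTS family was led by Adamts1, Adamts2, Adamts5 and Adamts12, each at a mean of 1083 normalized counts per kb of exons or more. Adamts1 (ENSMUSG00000022893.14), which cuts versican and aggrecan, was at 12063 in KO M, 11731 in KO FL and 11714 and 11907 in KO NULL, against 4997 in WT M, 9117 in WT FL and 5905 and 6148 in WT NULL. The KO libraries differed by 1.03-fold at most and were all above the WT libraries. KO was 1.86-fold above WT averaged over inserts (log2 0.89 ± 0.17 SE, adjusted p = 0.0213 with 4 group means), a call that was lost without any 1 library other than WT M or WT FL, with log2 differences of 0.88 to 0.91. Within WT it rose 1.51-fold with FL (adjusted p = 0.00101) and fell 1.21-fold with M (adjusted p = 0.00301), and the fall with M did not pass after quantile normalization. Adamts5 (ENSMUSG00000022894.6), the main aggrecanase of mouse cartilage, was at 11653 in KO M, 11220.2 in KO FL and 12809.7 and 12581 in KO NULL, against 7289.9 in WT M, 16619.8 in WT FL and 14486 and 14550.1 in WT NULL. In WT it rose 1.14-fold with FL and fell 1.99-fold with M. KO NULL was 1.14-fold below WT NULL (adjusted p = 0.772 with 4 group means, 0.00471 with 6), and the KO libraries lay between WT M and WT NULL.

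Adamts4, the other classical aggrecanase, was at 772 in KO M, 841 in KO FL and 770.4 and 684 in KO NULL, against 708 in WT M, 1139 in WT FL and 877 and 813 in WT NULL, and passed between WT M and WT FL (1.61-fold lower in WT M, adjusted p = 0.00491). Adamts9 (459.6 to 648.7), a proteoglycan-cutting protease, passed in the same comparison (1.41-fold lower in WT M, adjusted p = 0.0179). Adamts8 was at 14.8 to 19.9 in the KO libraries, against 28.2 in WT M and 42.0 to 44.98 in the other WT libraries, and was 2.13-fold lower in KO averaged over inserts (adjusted p = 0.0276). The groups did not overlap, at levels of some 15 to 45 normalized counts, and opposite-strand exons of Gm29724 overlap 10.6% of the gene. Without any 1 library other than WT M or WT FL the call was lost, with log2 differences of -1.15 to -1.03. Adamts15 (17.2 to 70.9) passed in none of the 11 main comparisons, and passed for IL-33 in WT with 6 group means.

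The procollagen N-proteinases remove the amino-terminal propeptide of fibrillar collagens. Adamts2 (ENSMUSG00000036545.9), a main member in skin, was at 10384 in KO M, 10150.2 in KO FL and 10799 and 11041 in KO NULL, against 5424 in WT M, 15574 in WT FL and 14357 and 14144 in WT NULL. It fell 2.63-fold with M in WT (adjusted p = 1.23e-06), and the KO libraries lay between WT M and the other WT libraries. Adamts14 was at 394 in KO M, 356 in KO FL and 359 and 332 in KO NULL, against 615 in WT M, 426 in WT FL and 393 and 350.0 in WT NULL, and was 1.65-fold higher with M. Adamts3 was low, at 4.14 to 15.3 in the KO libraries and 18.0 to 40.4 in the WT libraries, and was 3.52-fold lower in KO averaged over inserts (log2 -1.82 ± 0.41 SE, adjusted p = 0.0354). This call was lost without KO FL, KO M, KO NULL 1 or either WT NULL library, with log2 differences of -1.90 to -1.42. Of this group, 1 of 3 fell and 1 of 3 rose in WT M, where 49.3% of all tested genes passed. Averaged over inserts, 1 of 3 was lower in KO with 4 group means (11.9% of all tested genes passed) and 3 of 3 with 6 (40.8%).

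Adamts12 and Adamts7 cut cartilage oligomeric matrix protein. Adamts12 (ENSMUSG00000047497.10) was at 8068 in KO M, 7577 in KO FL and 8831 and 8737 in KO NULL, against 6622 in WT M, 16176 in WT FL and 19299 and 19333 in WT NULL. All KO libraries were below WT FL and WT NULL. In WT it fell 2.92-fold with M (adjusted p = 7.40e-07) and 1.19-fold with FL (adjusted p = 0.0142), and KO NULL was 2.20-fold below WT NULL (adjusted p = 0.139 with 4 group means, 3.08e-06 with 6). Adamts7 (125 to 288) was 1.79-fold higher in WT M than in WT NULL (adjusted p = 0.0316), a call lost without WT NULL 2 (log2 0.70). Adamts10, which takes part in the assembly of fibrillin microfibrils, was at 2792 in KO M, 2394 in KO FL and 2931 and 3032 in KO NULL, against 1974 in WT M, 6162 in WT FL and 7389 and 6649 in WT NULL. It fell 3.55-fold with M in WT, and KO NULL was 2.35-fold below WT NULL (adjusted p = 0.192 with 4 group means, 2.16e-05 with 6). Its close relative Adamts6 was at 1142 in KO M, 1055 in KO FL and 1153 and 1041 in KO NULL, against 601 in WT M, 923 in WT FL and 1039 and 1079.7 in WT NULL, and fell 1.76-fold with M. The 6 ADAMTS genes under a mean of 10 were Adamts13, Adamts16, Adamts17, Adamts18, Adamts19 and Adamts20. Summed per kb of exons, the 19 ADAMTS genes were at 5765 to 6177 in the KO libraries, 3483 in WT M, 7687 in WT FL and 7125 and 7048 in WT NULL.

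The inhibitors differed in direction from each other. Timp1 (ENSMUSG00000001131.11), an inducible inhibitor of most secreted MMPs, was at 14964 in KO M, 18442 in KO FL and 14418 and 14572 in KO NULL, against 15477 in WT M, 5275 in WT FL and 4337 and 4431 in WT NULL. The KO libraries and WT M lay together, well above WT FL and WT NULL. KO was 2.47-fold above WT averaged over inserts (log2 1.30 ± 0.31 SE, adjusted p = 0.0389 with 4 group means), a call lost without any 1 library other than WT M or WT FL, with log2 differences of 1.23 to 1.38. With M, Timp1 rose 3.53-fold in WT (adjusted p = 5.67e-07). With FL it rose 1.27-fold in KO (adjusted p = 0.0449) and 1.20-fold in WT (adjusted p = 0.0144). The rise in KO FL was lost without WT M or either KO NULL library, with log2 differences of 0.34 to 0.36.

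Timp2 (ENSMUSG00000017466.9), which inhibits MMPs and is also needed by Mmp14 to activate pro-MMP2, was at 43836 in KO M, 44479 in KO FL and 43838 and 44708 in KO NULL, against 21405 in WT M, 46213 in WT FL and 55560.3 and 57278 in WT NULL. In WT it fell 2.64-fold with M (adjusted p = 8.09e-07) and 1.22-fold with FL (adjusted p = 0.0069). Its averaged log2 difference between KO and WT was 0.07 with all libraries and -0.21 without WT M, and it passed both with 6 group means and without WT M, so its sign rests on that library. Timp3 (ENSMUSG00000020044.13), which binds to the matrix and also inhibits ADAMTS proteases, was at 40981 in KO M, 38974 in KO FL and 47933 and 47707 in KO NULL, against 22879.7 in WT M, 37110.4 in WT FL and 41929 and 42345 in WT NULL. It fell 1.84-fold with M (adjusted p = 3.39e-06) and 1.14-fold with FL (adjusted p = 0.0245) in WT, and 1.23-fold with FL in KO (adjusted p = 0.0439), the last lost without either KO NULL library. Opposite-strand exons of Syn3 overlap 21.3% of Timp3. Timp4 was at most 4.28 in every library.

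Per kb of exons, the make-up of the TIMP pool differed between groups. Timp1 made up 50.9% of the summed TIMP level in KO M, 56.2% in KO FL and 48.6% in both KO NULL libraries, against 67.7% in WT M, 26.6% in WT FL and 20.1% and 20.0% in WT NULL. The summed level was 33134 to 36970.2 in the KO libraries, 25732 in WT M, 22359 in WT FL and 24293 and 24891 in WT NULL, so every KO library was above every WT library. For the MMPs, the summed level was 8909.97 to 9292 in the KO libraries, 12824 in WT M, 9261 in WT FL and 9901 and 10042 in WT NULL. Mmp14 made up 58.4% to 61.5% of it in the KO libraries, 31.2% in WT M, 56.5% in WT FL and 60.01% and 61.4% in WT NULL, and Mmp2 made up 6.42% to 6.99% in the KO libraries, 27.8% in WT M, 9.77% in WT FL and 10.3% and 10.96% in WT NULL.

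**Figure D5:**
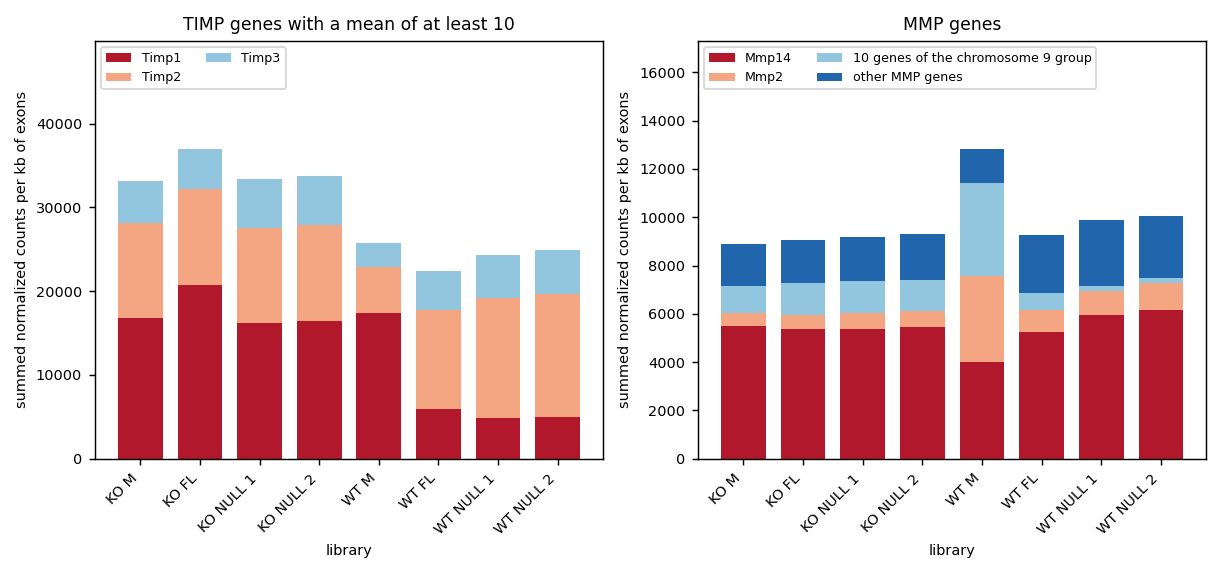
Normalized counts per kb of exons summed over the TIMP genes (left) and the MMP genes (right) in each library, with colours for single genes or groups. Timp1 is 67.7% of the TIMP bar in WT M and 20.1% and 20.0% in WT NULL, and Mmp2 is 27.8% of the MMP bar in WT M and 10.3% and 10.96% in WT NULL.

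Other genes of matrix proteolysis, a list of 40 of which 35 were tested, were also counted. In KO NULL against WT NULL, where 4.28% of all tested genes passed, 1 was higher (Fap, fibroblast activation protein, log2 1.605) and 2 were lower (Ctsl, log2 -0.79, and Pcsk6, log2 -0.96). Averaged over inserts (11.9% of all tested genes), 6 were higher in KO, among them Fap (log2 1.05), and 6 were lower. With 6 group means, added after the data were seen, 10 were higher and 12 lower in KO with the NULL virus (32.8% of all tested genes), and 16 were higher and 13 lower averaged (40.8%). In WT M against WT NULL, 11 were higher and 13 lower (49.3% of all tested genes). Reck, a membrane-anchored inhibitor of MMPs, was at 488 in WT M, against 2223 and 2211 in WT NULL (log2 -2.18, adjusted p = 1.35e-06), and at 1079.8 to 1332 in the KO libraries. WT FL against WT NULL gave 1 higher and 6 lower (7.39% of all tested genes), with Reck lower at 1659 (log2 -0.42), and KO M and KO FL against KO NULL gave 0 (limma, all tested genes). Of 14 substrates, 11 were tested. In WT M against WT NULL, 1 was higher and 7 were lower (median log2 -0.82), and in WT FL against WT NULL 1 was higher and 2 were lower. With the NULL virus, 0 were higher and 1 was lower in KO than in WT with 4 group means, and 3 were higher and 6 lower with 6. Averaged over inserts, 2 were higher and 1 was lower with 4 group means, and 2 were higher and 4 lower with 6. Versican (Vcan), a substrate of Adamts1, was at 3184 in WT M and 1339.5 in WT FL, against 831 and 904 in WT NULL, and was the 1 substrate that passed as higher in each of these comparisons with WT NULL. Elastin (Eln), a substrate of Mmp12, was at 5323 to 9151 in the KO libraries, 18425 in WT M and 68999 in WT FL, against 228091 and 208660 in WT NULL.

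The mature-IL-33 effect itself was compared between genotypes with 6 group means, as KO M minus KO NULL less WT M minus WT NULL. It passed in 22 of 32 genes, 14 higher and 8 lower (33.4% of all tested genes, 18.8% higher and 14.6% lower), with the most negative value for Mmp9 (log2 -4.98 ± 0.38 SE, adjusted p = 0.000156) and the most positive for Mmp28 (1.81 ± 0.23 SE, adjusted p = 0.00162). The vector Il33 level beside it was 81109.9 in KO M and 248956 in WT M, and its part in the difference was not tested. Other cell-type markers also moved with WT M, in which 49.3% of all tested genes passed. The 6 mesothelial markers summed to 4297 in WT M, against 1244 and 1236 in WT NULL (6 of 6 passed as higher), the 10 fibroblast markers to 469285, against 774395 and 755050 (7 of 10 passed as lower), and the 8 smooth muscle and pericyte markers to 258092, against 439484 and 436025 (7 of 8 passed as lower). The eighth, Des, passed as higher, at 21916 in WT M against 7007 and 6661 in WT NULL. Between genotypes, the smooth muscle and pericyte sum was 530424 to 540383 in the KO libraries and 258092 to 439484 in the WT libraries. Most of it was Acta2. With the NULL virus, 2 of the 8 passed as higher in KO with 4 group means (4.28% of all tested genes). With 6 group means, added after the data were seen, 5 were higher and 3 (Des, Notch3 and Rgs5) lower (32.8%). Rgs5 was at 129 and 119 in KO NULL, against 3709 and 3820 in WT NULL. The endothelial sum (6 genes) was 173 to 209 in the KO libraries and 324 to 485 in the WT libraries. Of the 5 tested, 3 passed as lower in KO NULL with 4 group means and 0 as higher. Tek was at 35.7 to 43.7 in the KO libraries and 18.3 to 28.9 in the WT libraries. The mesothelial sum was 282 to 579 in the KO libraries and 1073 to 4297 in the WT libraries. The epithelial sum (8 genes) was 109 to 411 in the KO libraries and 446 to 1384 in the WT libraries. In WT NULL most of it was Sftpc, at 969 and 765. Of the 6 tested, 2 passed as lower in KO NULL with 4 group means and 0 as higher. Krt19 was at 78.0 and 86.3 in KO NULL, against 59.5 and 73.2 in WT NULL. The part of these cells in the levels of the 32 genes was not tested.

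The genes whose levels were most like those of Adamts1 and Timp1 were sought among all tested genes by Pearson's r on log2 values over the 8 libraries. For Adamts1 they were Snrnp200 (r = 0.997), Npy1r (0.996) and Adm (0.992). Pearson's r takes no account of the size of a difference. Snrnp200 was at 3229 to 3871 over the 8 libraries, against 4997 to 12063 for Adamts1. For Timp1 they were Litaf (0.997), Fjx1 (0.997) and Rgs16 (0.996), with Rgs16 at 926 to 1347 in the KO libraries, 1248 in WT M, 289 in WT FL and 223 and 243 in WT NULL. The 8 libraries share their genotype and virus groups, and these values describe likeness over them alone.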

How the data were processed

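RNA was sequenced from 8 libraries titled as primary lung fibroblasts. The deposited values are normalized counts per gene (unit: signal), made by the authors with Salmon and DESeq2 on GRCm38.p6 per the submitters' processing notes, with roles and versions not given in the sources used here. Low values were whole multiples of 1 read for only 50.4% to 70.9% of genes (tolerance 0.02 steps), so whole reads were not recovered and no count test was run. The estimated depth was 2.37e+07 to 3.98e+07 reads. Symbols were matched for 54097 of 54331 IDs, and positions and exon lengths come from the GENCODE annotation of GRCm38. No per-sample column was left unused (0).

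The 15527 genes with a mean of at least 10 were tested with limma 3.58.1 (trend, two-sided) in R 4.3.3 on log2(normalized count + 1), so fold changes are on that scale and understate those of low genes. P-values were adjusted by Benjamini-Hochberg over all tested genes, with a threshold of 0.05. Genotype and IL-33 as a whole used 4 group means, and single IL-33 libraries used 6. The fit was checked on simulated data in which every library had the same spread. That check cannot show whether a lone M or FL library varies like the NULL pairs. Alternatives were the pseudocount, the filter, TMM, quantile normalization, the group means, omission of each library in turn, and a fit blocked on replicate number. Tables were made in Python 3.11.15 (pandas 2.3.3, with numpy 2.4.6), and figures with matplotlib 3.10.9.

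The members and gene lists were chosen with earlier results of these data known. Every member with a mean of at least 10 is named with its level. The values of all 8 libraries are given for the 24 called members with the smallest adjusted p, and the rest by range. Members under 10 are named, and the values given for a few of them (Mmp1b, Mmp21, Mmp24 and Timp4) go beyond that rule and were chosen after the values were seen. Likeness was computed for the called member with the smallest adjusted p in KO against WT averaged over inserts and in WT M against WT NULL, naming the 3 genes with the highest Pearson's r.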

Additional observations from a re-analysis of the deposited data

Results flagged for a closer look

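The response to mature IL-33 (M library against the NULL pair, 6 group means, limma) differed between KO and WT by its own test in 22 of the 32 genes. Each value is the log2 effect in KO minus that in WT, with adjusted p-values between 6.55e-06 and 0.0142. The genes that rose with M in WT had negative values: Mmp9 -4.98, Mmp13 -4.90, Mmp10 -4.83, Mmp3 -4.83, Mmp8 -3.51, Mmp12 -2.77, Mmp2 -1.91 and Timp1 -1.77. The genes that fell with M in WT had positive values. Among the ADAMTS genes these were Adamts1 0.30, Adamts5 0.87, Adamts6 0.88, Adamts2 1.32, Adamts12 1.42 and Adamts10 1.73. Among the MMP and TIMP genes they were Mmp19 0.43, Mmp14 0.61, Timp3 0.66, Mmp17 0.95, Mmp11 1.09, Timp2 1.38, Mmp23 1.63 and Mmp28 1.81. The calls of Adamts1 and Mmp19 were lost without either KO NULL library, with values of 0.29 to 0.31 and 0.42 to 0.44. Over all tested genes, 33.4% passed in this comparison, 18.8% higher and 14.6% lower. Each side of this difference rests on 1 M library, and the vector Il33 transcript was at 81109.9 in KO M and 248956 in WT M. Its part in the difference was not tested.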

How the results depend on the processing

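With 6 group means, the calls were 19 for KO against WT with the NULL virus (1 with 4 group means), 23 averaged over inserts (5), 25 for IL-33 in WT (0), 1 for IL-33 in KO (0) and 20 for their difference (0). In the same order, the shares of all tested genes were 32.8%, 40.8%, 37.4%, 0.174% and 20.5% with 6 group means. With 4 group means they were 4.28%, 11.9%, 0.264%, 0.0193% and 0.129%. For the averaged comparison, a mean of at least 50, no filter and quantile normalization each gave 3. No filter gave 5 for WT FL against WT NULL (11). Quantile normalization gave 1 for KO FL (2) and 2 for KO against WT with the NULL virus. TMM factors and pseudocounts of 0.5 and 8 moved no count by more than 1.5 times. Same-numbered NULL libraries of KO and WT showed no common shift (correlation 0.0231 of same-numbered deviations). That value cannot say whether they were prepared together. A replicate block gave 0 for KO FL, 1 for the averaged comparison and 6 for WT FL. Leaving out 1 library gave 0 to 19 for KO against WT with the NULL virus (19 without WT M or WT FL, 0 otherwise), 0 to 25 averaged (25 without WT FL, 20 without WT M), 0 to 26 for IL-33 in WT, 0 to 0 for IL-33 in KO and 0 to 24 for the difference. It gave 5 to 12 for WT FL, 24 to 26 for WT M, 0 to 2 for KO FL, 0 to 0 for KO M, 25 to 26 for WT M against WT FL and 20 to 23 for the M effect between genotypes. Single-gene values were followed under these alternatives only for genes called in the main fit of a comparison. Of these, 1148 kept their call, 102 lost it and 0 reversed. Genes not called in the main fit are outside this count. Among them, Mmp9, Mmp13, Mmp14, Mmp19, Mmp28, Adamts9 and Timp2 changed the sign of their averaged difference between KO and WT without WT M. For example, Mmp14 went from a log2 difference of 0.04 to -0.05, and Mmp28 from 0.18 to -0.20. The fall of Adamts1 with M in WT became -0.04 with quantile normalization and did not pass. The spread rests on 2 NULL pairs, and the cause of these changes was not tested beyond the libraries and group means named.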
